A study of Mus musculus with 8 samples.

Results

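The transcripts of 10 genes that encode colony-stimulating factors and inflammatory cytokines, Csf1, Csf2, Csf3, Il1a, Il1b, Il6, Il18, Il23a, Lif and Tnf, were followed in Myc-CaP prostate tumor cells. The genes were taken by symbol from the 39089 genes of the count tables, and all 10 were found. Myc-CaP is a mouse prostate cancer line driven by a Myc transgene. It carried either an empty control vector (WT) or an sgRNA against Arid1a (KO), and Arid1a encodes a DNA-binding subunit of the SWI/SNF chromatin remodelling complex. The cells were inoculated under the skin of male FVB mice 6 weeks of age. From day 16 the mice were gavaged daily for 2 weeks with JSH-23 or with corn oil as the vehicle. JSH-23 was dissolved in DMSO and diluted in corn oil, and the paper's legend for these tumors names the control arms DMSO. JSH-23 is a small molecule that blocks the entry of the NF-κB subunit p65 into the nucleus. RNA-seq was run on the EpCAM+ CD45- fraction of the tumors, in 4 groups of 2 samples, WT vehicle, KO vehicle, WT JSH-23 and KO JSH-23. The sources do not tie samples to animals or say whether the KO line was 1 clone, so p-values measure the spread between these samples, which may be technical.

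The colony-stimulating factors M-CSF (Csf1), GM-CSF (Csf2) and G-CSF (Csf3) drive the production, survival and recruitment of macrophages and granulocytes. LIF and IL-6 act through receptors that share the gp130 subunit and activate STAT3. IL-1α, IL-1β and IL-18 belong to the IL-1 family, whose β and 18 forms are cut from precursors by caspase-1, TNF engages TNF receptors, and IL-23 pairs the p19 subunit encoded by Il23a with the p40 subunit encoded by Il12b. NF-κB is a well known activator of many of these genes, and tumor cells that secrete them can draw in myeloid cells. The level of a transcript says nothing of how much cytokine was processed or secreted.

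Each library held 16401581 to 21972231 counts, so that 3 counts corresponded to 0.137 to 0.183 counts per 1000000 (CPM). Arid1a was at 158 and 163 CPM in WT vehicle, 145 and 156 in WT JSH-23, 106 and 109 in KO vehicle and 89.7 and 91.0 in KO JSH-23, lower in every KO sample but far from 0. Epcam, the sort marker, had 0 to 4 counts per library, Cdh1 1 to 19 and Krt18 4 to 18, while Krt8 had 540 to 2308 and was called higher in KO vehicle (log2 fold change 1.02 ± 0.048, adjusted p = 3.79e-29). An epithelial identity by Epcam, Cdh1 and Krt18 was therefore not seen in the RNA, and the cells are described by their label. In sorted bulk samples, fewer cells of a type and less RNA per cell cannot be told apart.

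The promoters are shown because JSH-23 targets a DNA-binding factor and several of the genes fell under it. Of the 10 genes, 8 matched the RefSeq promoter table of GRCm38.p6, and Csf3 and Il23a did not. The 250 bases before the transcription start were searched on both strands for 5 motifs. They were the NF-κB motif, the AP-1 motif TGANTCA, the TATA box TATAAA, the HIF motif ACGTG and the C/EBP motif TTGCNNAAT. None of these motifs was allowed a mismatch, and matches could overlap. The NF-κB motif was found in Csf1 and Il6 and in 3.90% of 32851 promoters. The AP-1 motif was found in Il1a, Il6 and Lif and in 6.75% of promoters. TATAAA was found in Il1a, Il1b, Il18 and Tnf and in 12.4% of promoters. In Il18 it was on the strand opposite to the gene, 175 to 170 bases before the start. In Il1a, Il1b and Tnf it was on the gene's strand. TTGCNNAAT was found in Il6 and in 2.11% of promoters, and ACGTG was in none of the 8 but in 16.6% of all. A match is a description of letters, and a missing match says only that the letters are not in the window. The 4 sequences below were chosen after the matches and levels were seen: Csf1 for its NF-κB match, Lif for its AP-1 match, and Tnf and Il1b as TATA-box promoters of genes that moved in opposite directions between genotypes. They read 5′ to 3′ along the gene's strand, with the matches in capitals.
Csf1 chr3:107760470-107760719 (- strand): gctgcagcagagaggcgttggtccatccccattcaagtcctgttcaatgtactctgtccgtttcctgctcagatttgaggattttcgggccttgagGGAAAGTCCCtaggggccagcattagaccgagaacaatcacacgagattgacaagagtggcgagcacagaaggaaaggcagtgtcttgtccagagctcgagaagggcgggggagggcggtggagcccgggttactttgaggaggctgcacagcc
Lif chr11:4257318-4257567 (+ strand): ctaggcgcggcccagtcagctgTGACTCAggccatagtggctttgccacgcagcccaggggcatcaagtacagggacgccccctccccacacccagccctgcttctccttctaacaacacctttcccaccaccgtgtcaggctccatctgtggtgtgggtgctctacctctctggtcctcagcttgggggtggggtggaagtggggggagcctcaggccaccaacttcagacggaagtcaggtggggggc
Tnf chr17:35202008-35202257 (- strand): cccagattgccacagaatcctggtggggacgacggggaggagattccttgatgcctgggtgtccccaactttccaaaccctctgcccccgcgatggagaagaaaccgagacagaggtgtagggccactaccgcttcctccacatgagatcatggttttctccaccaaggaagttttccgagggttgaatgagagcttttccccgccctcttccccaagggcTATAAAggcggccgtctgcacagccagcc
Il1b chr2:129371140-129371389 (- strand): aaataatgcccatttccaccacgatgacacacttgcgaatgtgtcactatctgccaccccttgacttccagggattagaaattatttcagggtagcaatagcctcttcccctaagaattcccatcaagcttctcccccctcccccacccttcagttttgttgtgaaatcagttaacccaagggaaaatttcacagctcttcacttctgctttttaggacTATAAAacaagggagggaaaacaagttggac

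In Csf1 the NF-κB match, on the strand opposite to the gene, lay 154 to 145 bases before the start. The AP-1 match of Lif lay 228 to 222 bases before the start, and the TATA boxes of Tnf and Il1b lay 29 to 24 and 31 to 26 bases before it. These starts are those of the RefSeq promoter entries. For Il1a and Il1b they lie inside the gene spans given below, so that their windows overlap the spans. On GRCm38, Csf1 spans chr3:107741048-107760469 (minus strand), Csf2 chr11:54247270-54249899 (minus), Csf3 chr11:98700183-98703631 (plus) and Lif chr11:4257568-4272514 (plus). Il1a spans chr2:129299609-129310186 (minus) and Il1b chr2:129364569-129371164 (minus), so that the IL-1α and IL-1β genes are neighbours. Il6 spans chr5:30013114-30019975 (plus), Il18 chr9:50554700-50581841 (plus), Il23a chr10:128296140-128298084 (minus) and Tnf chr17:35199367-35202007 (minus). All 10 are protein-coding. Antisense genes overlap 7 of them, all but Il23a, Lif and Tnf, and the counting was stated to be strand-specific. Apart from Gm40121, the antisense gene at Csf1, which reached 322 counts, the overlapping genes had at most 11 counts in any library.

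Lif and Csf1 were the most abundant of the 10 transcripts in every group. Per transcript length, as transcripts per 1000000 (TPM), WT vehicle had 28.4 ± 0.98 of Csf1 and 23.9 ± 0.21 of Lif (mean ± SD, n = 2), followed by Csf3 at 3.70 ± 0.27, Il1b at 2.73 ± 0.45 and Il18 at 2.10 ± 0.011. The order changed in KO vehicle, where Lif stood first at 42.5 ± 0.31 TPM, followed by Csf1 at 24.1 ± 0.49 and Csf3 at 14.5 ± 1.9. Il18 followed at 2.68 ± 0.78 TPM in that group, then Tnf at 1.30 ± 0.16 and Il23a at 1.13 ± 0.44. The ranges of Tnf and Il23a overlapped in KO vehicle, and so did those of Csf3 and Il1b in WT JSH-23, so these neighbours were not ordered beyond their spread. Csf2 was at or near 0 throughout, with 1 count in WT vehicle, 1 in WT JSH-23 and none in either KO group, all under the 3 counts that a count of 0 allows.

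**Figure D1:**
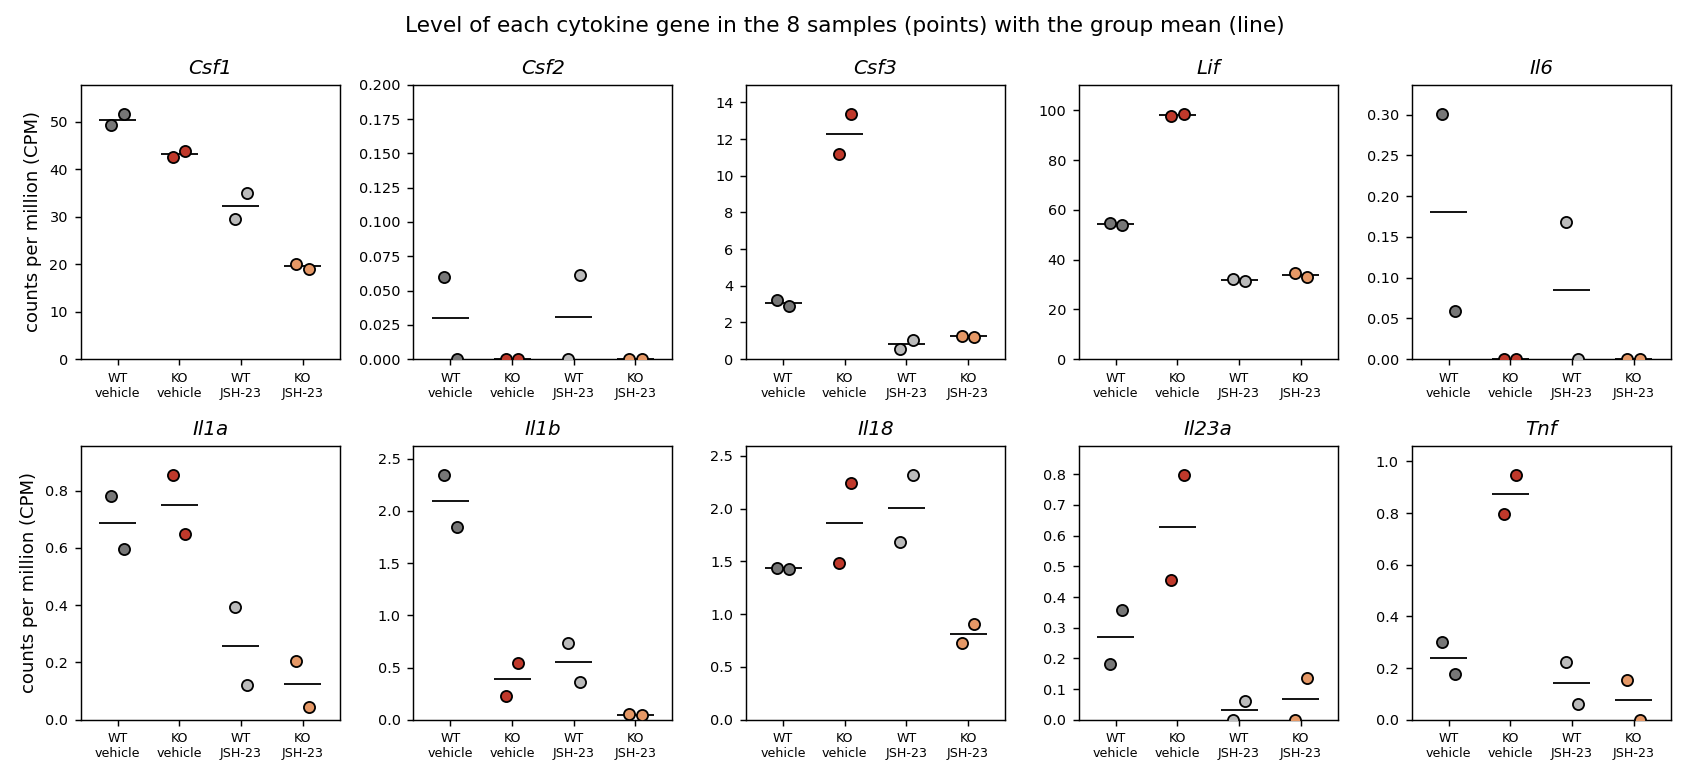
CPM of each of the 10 genes (vertical axis, linear and starting at 0, scaled for each gene) in the 4 groups (horizontal axis). Each point is 1 sample and each line the mean of 2. Csf3, Lif, Il23a and Tnf are highest in KO vehicle, Il1b is highest in WT vehicle, and for the 7 tested genes the mean under JSH-23 is below that of the vehicle group of the same genotype, except for Il18 in WT.

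For the tests, all genes were fitted together with edgeR, and a gene was called at a fold change of at least 1.5 with an adjusted p under 0.05. A filter on low counts kept 13921 genes and 7 of the 10, leaving out Csf2, Il6 and Il23a. Of these 7, Tnf reached the filter's 0.566 CPM only in KO vehicle, Il1b in both samples of WT vehicle and 1 of WT JSH-23, and Il1a only in the vehicle groups. These 3 entered through the groups in which they were high, so the counts of called genes and the medians below describe the 7 and are not support for a change of the set.

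The question of the first comparison was what Arid1a loss did to tumor cells under vehicle. Csf3, Lif and Tnf were called higher in KO and Il1b lower, while Csf1, Il18 and Il1a were not called. That is 3 of 7 higher and 1 of 7 lower, where 7.48% of all genes tested were called higher and 5.16% lower. The median log2 fold change was 0.36 over the 7 and 0.00 over all genes. JSH-23 in KO tumors lowered all 7 tested genes, where 9.10% of all genes were called higher and 16.9% lower. The median log2 fold change was -2.45 over the 7, which is the value of Il1a, and -0.02 over all genes. In WT tumors JSH-23 lowered 4 of 7, Csf1, Csf3, Il1b and Lif, and raised none, where 5.55% of all genes were called higher and 10.2% lower. The comparisons share samples, since the KO vehicle and WT vehicle groups enter more than 1 of them.

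The effect of JSH-23 differed between the genotypes for Csf3, Il18 and Lif, whose interaction was called lower in KO. Of all genes, 3.30% had a called interaction in the higher direction and 5.76% in the lower. DESeq2 called 2 of these 3, and edgeR tested against a 1.5-fold change or with an assumed biological coefficient of variation of 0.2 called 0, where the fitted spread gave 3 with a 1.5-fold change and an unadjusted p under 0.05. With that assumed spread Lif was also no longer called between genotypes under vehicle (adjusted p = 0.0862), nor Csf1 and Lif under JSH-23 in WT (adjusted p = 0.235 and 0.115). Without scaling beyond the library size, the split of all called genes moved from 1267 higher and 2358 lower to 843 and 2899 for JSH-23 in KO, and from 460 higher and 802 lower to 270 and 1163 for the interaction.

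**Figure D2:**
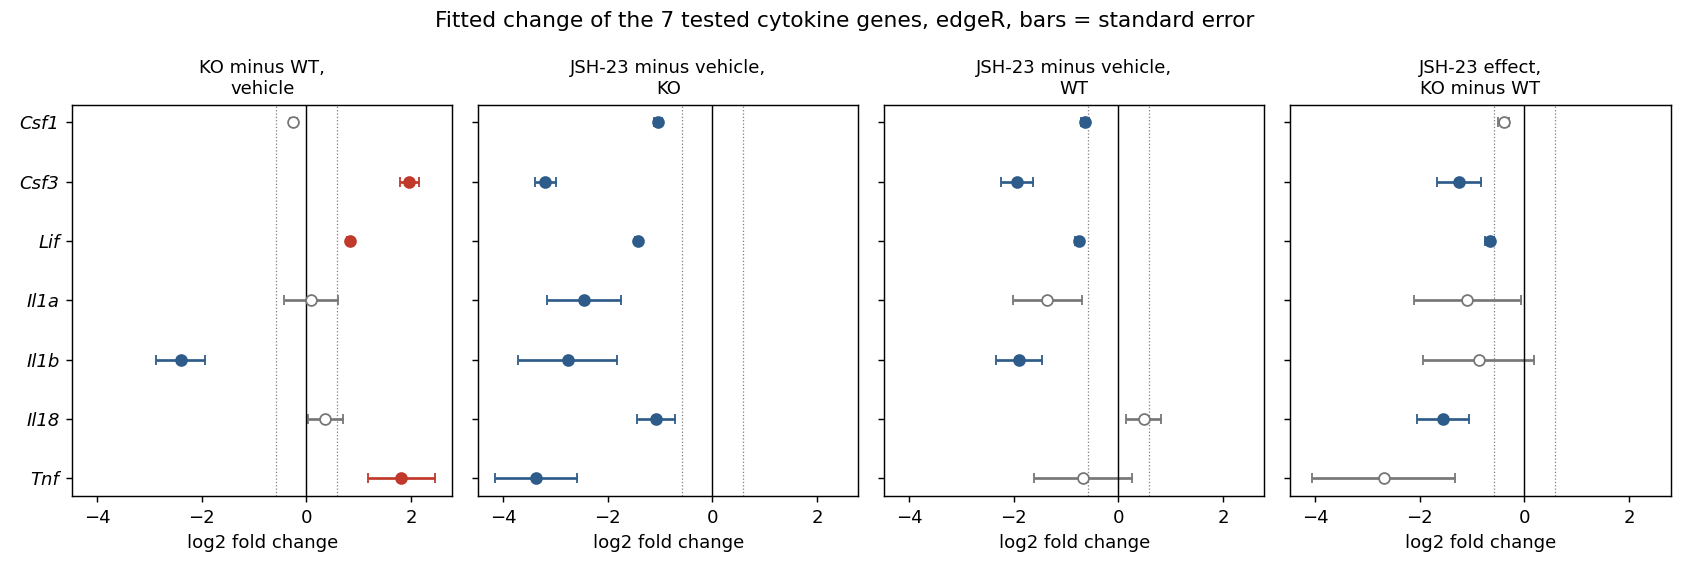
Fitted log2 fold change (horizontal axis) of the 7 tested genes (vertical axis) in 4 comparisons, 1 per panel, with the standard error as the bar. Filled points were called, red higher and blue lower, open points were not, and dotted lines mark a 1.5-fold change. All 7 points lie to the left of 0 for JSH-23 in KO, from -1.04 for Csf1 to -3.36 for Tnf.

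Csf3, which encodes the granulocyte factor G-CSF, was called higher in KO and lower with JSH-23 in both genotypes. Its counts were 54 and 49 in WT vehicle, 196 and 268 in KO vehicle, 10 and 17 in WT JSH-23 and 24 and 27 in KO JSH-23. KO vehicle stood above every other sample and WT JSH-23 below every other sample, with no overlap between any groups. In KO over WT vehicle the log2 fold change was 1.97 ± 0.18 (SE, adjusted p = 1.25e-15), and the ratio of the pooled CPM was 4.01 (95% exact interval 3.23 to 5.01, counting error only). JSH-23 lowered Csf3 by a log2 fold change of -3.20 ± 0.20 in KO (adjusted p = 4.62e-23) and -1.94 ± 0.30 in WT (adjusted p = 9.30e-08). The difference between these effects was -1.25 ± 0.42 (adjusted p = 0.0134). Without WT JSH-23 replicate 2 that difference was -0.77 with an adjusted p of 0.326, and over all alternatives its adjusted p ran from 0.00188 to 0.702.

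Csf1, which encodes M-CSF, the main survival factor of macrophages, was not called between genotypes under vehicle. Its CPM was 49.2 and 51.6 in WT vehicle, 42.7 and 43.8 in KO vehicle, 29.6 and 35.0 in WT JSH-23 and 20.0 and 19.1 in KO JSH-23. The groups did not overlap and stood in that order, but the step from WT to KO vehicle was under 1.5-fold, at a log2 value of -0.25 ± 0.065 (adjusted p = 8.83e-04). JSH-23 lowered it with a log2 change of -1.04 ± 0.074 in KO (adjusted p = 1.60e-20) and with a log2 change of -0.64 ± 0.069 in WT (adjusted p = 1.83e-12). Without WT JSH-23 replicate 1 the WT value was -0.51 and no longer 1.5-fold. The interaction, -0.40 ± 0.10 (adjusted p = 9.95e-04), was also under 1.5-fold. Under JSH-23, Csf1 was lower in KO than in WT, with a log2 change of -0.65 ± 0.079 (adjusted p = 1.15e-10), and without WT JSH-23 replicate 2 the value was -0.52, under 1.5-fold. JSH-23 thus lowered both Csf1 and Csf3 in both genotypes.

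Lif, the gp130 cytokine that maintains undifferentiated cells and activates STAT3, was measured most precisely. Its CPM was 54.7 and 53.9 in WT vehicle, 97.6 and 98.4 in KO vehicle, 32.3 and 31.3 in WT JSH-23 and 34.7 and 33.0 in KO JSH-23. KO vehicle was above all other samples, and the JSH-23 groups lay side by side below both vehicle groups. Lif rose in KO by a log2 fold change of 0.83 ± 0.050 (adjusted p = 9.16e-24). JSH-23 lowered it with a log2 change of -1.42 ± 0.052 in KO (adjusted p = 3.95e-36) and -0.76 ± 0.061 in WT (adjusted p = 1.28e-17). The effect was larger in KO, with a log2 difference of -0.66 ± 0.082 (adjusted p = 3.01e-10). Under JSH-23 the genotypes differed by 0.16 ± 0.064 (adjusted p = 0.0303), which is under 1.5-fold and turned to -0.02 on the log2(TPM + 1) scale. In KO JSH-23, Lif was below WT vehicle with a log2 change of -0.59 ± 0.058 (adjusted p = 2.59e-14), just past 1.5-fold, and the call was lost without WT vehicle replicate 1, at -0.57, and without KO JSH-23 replicate 2, at -0.56.

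Il6, the namesake of the family, was hardly detected. It had 5 and 1 counts in WT vehicle, 3 and 0 in WT JSH-23, and 0 in all 4 KO samples. At this depth a difference between the groups was not detectable, and in a fit without the filter its adjusted p was 0.155 between genotypes under vehicle. Of the 2 gp130 cytokines among the 10 genes, Lif rose in KO and Il6 stayed at or near 0 counts.

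Il1b, of the IL-1 family, was the 1 gene of the 7 called lower in KO under vehicle. It had 39 and 31 counts in WT vehicle, 4 and 11 in KO vehicle, 13 and 6 in WT JSH-23 and 1 and 1 in KO JSH-23. Every WT vehicle sample was above every other sample, and WT JSH-23 overlapped KO vehicle. In KO relative to WT vehicle the log2 fold change was -2.40 ± 0.46 (adjusted p = 9.44e-06), and the WT level was 5.25 times that in KO (95% exact interval 2.98 to 9.87). JSH-23 lowered Il1b in WT with a log2 change of -1.89 ± 0.44 (adjusted p = 2.00e-04). In KO the 15 counts of vehicle against the 2 of JSH-23 gave a ratio of 8.24 (95% exact interval 1.92 to 74.2), and the fitted log2 value of -2.77 ± 0.94 (adjusted p = 0.00755) was not called without KO vehicle replicate 2 (-1.98, adjusted p = 0.170, range over the alternatives 0.00343 to 0.170).

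Some genes of macrophages and other myeloid cells were split over the samples as Il1b was, and others were not. Adgre1, which encodes the macrophage antigen F4/80, had 17 and 19 counts in WT vehicle, 0 and 0 in KO vehicle, 17 and 1 in WT JSH-23 and 0 and 2 in KO JSH-23. Itgam, the CD11b gene, had 10 and 15, 0 and 0, 12 and 0, and 1 and 0 in the same order, and Lyz2, the lysozyme of myeloid cells, 164 and 165, 54 and 71, 190 and 85, and 68 and 48. Ptprc, the CD45 gene that the sort selected against, had 7 and 3 counts in WT vehicle and 3 and 5 in KO vehicle. Under JSH-23 Ptprc had 10 and 0 counts in WT and 2 and 1 in KO. Cd68, of lysosomes, had 110 and 127 counts in WT vehicle and 301 and 378 in KO vehicle. Under JSH-23 Cd68 had 98 and 81 counts in WT and 165 and 153 in KO. Of the 15 leukocyte markers listed, 5 passed the filter, Adgre1 and Itgam only through WT samples, where they were high. In KO vehicle against WT vehicle, Adgre1, Itgam and Lyz2 were called lower, Cd68 was called higher (log2 fold change 1.32 ± 0.12, adjusted p = 4.95e-15) and Cd14 was not called (0.11 ± 0.12, adjusted p = 0.456). The summed level of all 15 was 29.6 to 31.4 CPM in WT vehicle, 32.3 to 35.7 in KO vehicle, 16.7 to 25.9 in WT JSH-23 and 15.6 to 18.1 in KO JSH-23, most of it from Cd14, Cd68 and Lyz2. The T cell gene Cd3e and the neutrophil genes Ly6g and Mpo were at 0 in both vehicle groups. Of the other neutrophil genes listed, S100a8 had 1 and 1 counts in WT vehicle and 1 and 2 in KO vehicle. S100a9 had 0 and 0 in WT vehicle and 1 and 0 in KO vehicle, and Cxcr2 had 0 and 0, and 3 and 2. The 2 WT JSH-23 samples differed in several of these genes. Replicate 1 held more Adgre1, Itgam, Lyz2, Ptprc, C1qa, Il1b and Il6 than replicate 2, with C1qa at 10 and 2 counts. Without replicate 1 the change of Il1b under JSH-23 in WT was -2.48, and without replicate 2 it was -1.50 (adjusted p = 4.57e-04 and 0.0112). Tnf and Cd68 were both highest in KO vehicle, where Adgre1, Itgam and C1qa were at 0. The part of leukocyte RNA in the levels of Il1b, Il6 and Tnf was not tested.

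**Figure D3:**
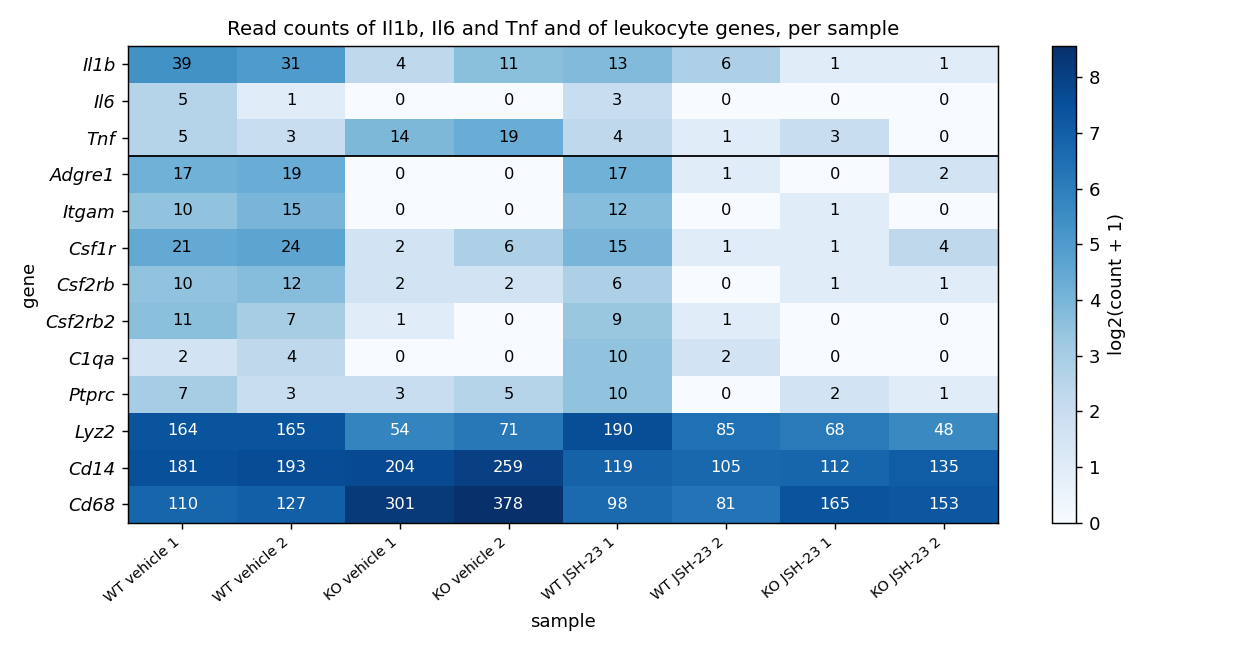
Read counts of Il1b, Il6 and Tnf (above the line) and of 10 leukocyte genes (below it) in the 8 samples, with the count printed in each cell and the color giving log2(count + 1). Il1b, Adgre1, Itgam and Lyz2 are high in both WT vehicle samples and low in both KO groups, and WT JSH-23 1 holds more of them than WT JSH-23 2, while Cd68 is highest in KO vehicle.

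Il1a, the membrane-bound alarmin of the family, had 13 and 10 counts in WT vehicle, 15 and 13 in KO vehicle, 7 and 2 in WT JSH-23 and 4 and 1 in KO JSH-23. The vehicle groups overlapped and stood above both JSH-23 groups. It was not called between genotypes, at 0.09 ± 0.52 (adjusted p = 0.905), and this value turned to -0.11 without KO vehicle replicate 1. JSH-23 lowered it in KO with a log2 change of -2.45 ± 0.71 (adjusted p = 0.00184). Without KO JSH-23 replicate 2 the KO value was -1.71 with an adjusted p of 0.0597, the highest over the alternatives, of which the lowest was 2.42e-04. In WT the change of -1.36 ± 0.65 had an adjusted p of 0.0707, and without WT JSH-23 replicate 1 it was called, at -2.42 (adjusted p = 0.0315, range over the alternatives 0.0315 to 0.506). Leaving out each sample gave -2.42 to -0.79. The difference between the effects in the genotypes, -1.09, was not called (adjusted p = 0.433).

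Il18, the interferon-γ inducing member, had a different pattern. It had 24 and 24 counts in WT vehicle, 26 and 45 in KO vehicle, 30 and 38 in WT JSH-23 and 14 and 20 in KO JSH-23. KO JSH-23 was below every other sample, and the other 3 groups lay close together. Under vehicle it was not called between genotypes, at 0.36 ± 0.34 (adjusted p = 0.388). JSH-23 lowered Il18 in KO with a log2 change of -1.07 ± 0.36 (adjusted p = 0.00646), while its value in WT was 0.48 ± 0.34 (adjusted p = 0.225). The interaction was -1.56 ± 0.49 (adjusted p = 0.00834). It was not called with DESeq2 (adjusted p = 0.0610), without KO vehicle replicate 2 (-1.21, adjusted p = 0.106) or without WT JSH-23 replicate 2 (-1.31, adjusted p = 0.0559), and over all alternatives the adjusted p ran from 0.00315 to 0.385. The KO effect itself was not called without KO vehicle replicate 2 (-0.73, adjusted p = 0.176) or KO JSH-23 replicate 1 (-0.91, adjusted p = 0.0548), and over the alternatives its adjusted p ran from 0.00233 to 0.176.

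Tnf, the NF-κB target and activator, was scarce but highest in KO vehicle. It had 5 and 3 counts in WT vehicle, 14 and 19 in KO vehicle, 4 and 1 in WT JSH-23 and 3 and 0 in KO JSH-23. Both KO vehicle samples were above all others, and the remaining groups lay between 0 and 5 counts. KO vehicle exceeded WT vehicle 3.67-fold in pooled CPM (95% exact interval 1.66 to 9.19, counting error only), and the fit put the difference at 1.82 ± 0.64 on the log2 scale (adjusted p = 0.0146). The call was lost with DESeq2 (adjusted p = 0.141) and without WT vehicle replicate 2 (adjusted p = 0.125) or KO vehicle replicate 2 (adjusted p = 0.0868), and over all alternatives the adjusted p ran from 0.00416 to 0.189. In KO the vehicle level was 12.1 times that under JSH-23 (95% exact interval 3.79 to 61.6), and the fitted log2 value was -3.36 ± 0.78 (adjusted p = 1.25e-04). In WT the value was -0.68 ± 0.94 (adjusted p = 0.561), and the interaction of -2.69 ± 1.4 was not called (adjusted p = 0.115), although limma on log2(TPM + 1) called it, at -0.89 (adjusted p = 0.0122).

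Il23a, the p19 subunit of IL-23, was highest in KO vehicle, as Tnf was, but was under the filter. It had 3 and 6 counts in WT vehicle, 8 and 16 in KO vehicle, 0 and 1 in WT JSH-23 and 0 and 3 in KO JSH-23. Both vehicle groups were at or above the highest JSH-23 sample, and KO vehicle was above WT vehicle. The ratio of KO to WT vehicle was 2.37 (95% exact interval 1.06 to 5.80, counting error only), and in the fit without the filter the log2 fold change was 1.18 with an adjusted p of 0.322. In KO the vehicle level was 8.79 times that under JSH-23 (95% exact interval 2.67 to 45.6), and without the filter the fitted log2 value was -2.91 (adjusted p = 0.00576). In WT the value of Il23a without the filter was -2.92 (adjusted p = 0.0841), with an interaction of 0.0088. For Tnf the main fit gave -0.68 in WT and an interaction of -2.69, which was not called (adjusted p = 0.115). The values of the 2 genes come from different fits, and a difference between the genes was not tested. Il12b, the partner subunit, had 0 to 4 counts per library.

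Under JSH-23, KO tumors were compared with WT tumors, where 3.74% of all genes were called higher and 4.97% lower. Of the 7 tested genes, 3 were lower in KO, Csf1, Il18 and Il1b, and none was higher. Il18 was lower with a log2 change of -1.19 ± 0.36 (adjusted p = 0.00422), and this was not called without WT JSH-23 replicate 2 (-0.95, adjusted p = 0.0771, range over the alternatives 0.00151 to 0.334). The 2 counts of Il1b in KO against the 19 in WT gave an 11.5-fold lower level in KO (95% exact interval 2.77 to 102). Csf3 was at 0.72 ± 0.35 (adjusted p = 0.0915), and without WT JSH-23 replicate 2 it was called higher in KO at 1.20 (adjusted p = 0.0348, the lowest over the alternatives, of which the highest was 1.0).

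KO tumors under JSH-23 were also set against WT tumors under vehicle, where 7.49% of all genes were called higher and 14.0% lower. Here 5 of the 7 were lower, Csf1, Csf3, Il1a, Il1b and Lif, and none was higher. Csf1 was at -1.28 ± 0.073 (adjusted p = 2.99e-25) and Csf3 at -1.23 ± 0.26 (adjusted p = 3.93e-05). Both lay below the WT vehicle level, and so did Il1a, at -2.36 ± 0.73 (adjusted p = 0.00395), which was not called without KO JSH-23 replicate 2 (-1.62, adjusted p = 0.0875). Tnf was not called (-1.55 ± 1.0, adjusted p = 0.191), but without KO JSH-23 replicate 1, which held all 3 of the group's counts, it was (-5.15, adjusted p = 0.0365, range over the alternatives 0.0365 to 0.730), as was its interaction (-6.29, adjusted p = 0.0267, range over the alternatives 0.0122 to 0.871), both resting on a remaining sample at 0.

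The receptors of these cytokines were read from a list of 16 receptor and signalling subunits, of which 10 were tested. Under vehicle none was higher and 3 were lower in KO: Il6st, the gp130 subunit, Csf1r, the M-CSF receptor, and Csf2rb, the shared β chain of the GM-CSF receptor, where 7.48% of all genes were called higher and 5.16% lower. Csf1r and Csf2rb passed the filter only through WT samples, where they were high. The median of the 10 was -0.27, against 0.00 over all genes. Il6st was at 942 and 992 counts in WT vehicle, 612 and 686 in KO vehicle, 1086 and 935 in WT JSH-23 and 432 and 526 in KO JSH-23. Each KO group was below each WT group, and the log2 fold change under vehicle was -0.77 ± 0.062 (adjusted p = 1.00e-17). Csf1r had 21 and 24 counts in WT vehicle, 2 and 6 in KO vehicle, 15 and 1 in WT JSH-23 and 1 and 4 in KO JSH-23, and Csf2rb 10 and 12, 2 and 2, 6 and 0, and 1 and 1. These counts were split over the samples as those of Adgre1 and Itgam were, and the part of leukocyte RNA in them was not tested.

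The ligands and their receptors differed in level in these cells. Lifr, the LIF-specific subunit, had 0 to 5 counts in any sample, and did not exceed the 3 counts that a count of 0 allows in 6 of 8 samples. Csf3r had 0 to 8 counts, Il23r 0 to 1 and Il18r1 3 to 11. The TNF receptors were abundant, with Tnfrsf1a at 108 ± 3.7 TPM and Tnfrsf1b at 108 ± 0.50 TPM in WT vehicle, while Tnf itself was at 0.361 ± 0.13. Il6ra stood at 51.3 ± 2.3 TPM in WT vehicle with Il6 at 0.393 ± 0.37. JSH-23 lowered Il6ra in both genotypes, with a log2 change of -1.06 ± 0.057 in KO (adjusted p = 1.28e-26) and -0.91 ± 0.058 in WT (adjusted p = 3.22e-22), and raised Tnfrsf1a in KO by 0.70 ± 0.040 (adjusted p = 1.22e-25). No receptor subunit had a called interaction. Under JSH-23 in KO 1 of 10 was called higher and 1 lower, where 9.10% of all genes were higher and 16.9% lower. In WT none was called higher and 3 were called lower, Csf1r, Csf2rb and Il6ra, where 5.55% of all genes were higher and 10.2% lower.

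**Figure D4:**
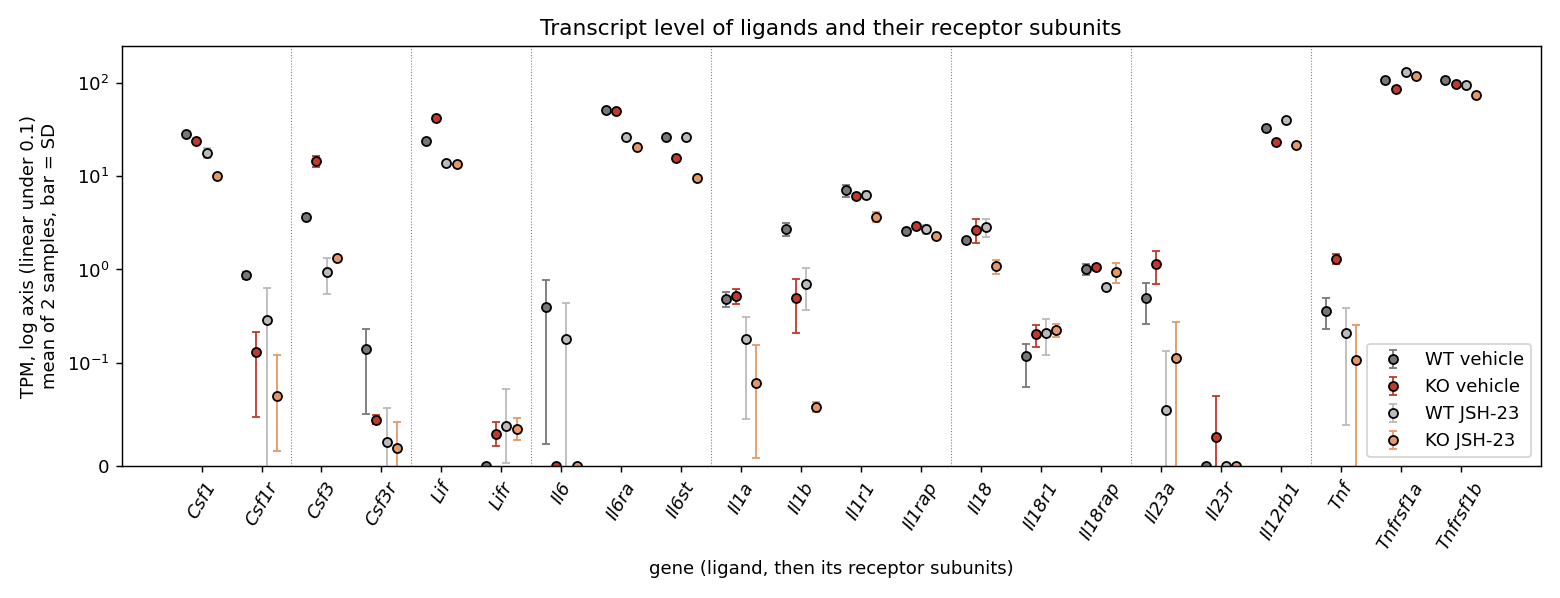
Transcript level in TPM (vertical axis, logarithmic and linear under 0.1) of each ligand and of its receptor subunits (horizontal axis, set off by dotted lines), as the mean of 2 samples with the SD as the bar, in 4 colors for the groups. Lif and Csf1 stand far above Lifr and Csf1r, and Tnfrsf1a and Tnfrsf1b far above Tnf.

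Antagonists, decoy receptors and processing enzymes were read from a list of 13, of which 9 were tested. Capn1, a calpain (calpains process IL-1α), and Gsdmd, whose pore releases IL-1β, were called lower in KO vehicle and none was higher, where 5.16% of all genes were lower and 7.48% higher, and the median was -0.22. Capn1 was at -0.59 ± 0.045 (adjusted p = 7.70e-19), at the 1.5-fold limit, and Gsdmd at -0.95 ± 0.21 (adjusted p = 9.61e-05). Casp1 had 2 to 5 counts in every library and Pycard 1 to 6, so that the caspase-1 machinery of IL-1β and IL-18 was barely measured. In KO, JSH-23 raised 1 of the 9, the decoy receptor Il1r2 (1.21 ± 0.34, adjusted p = 0.00160), where 9.10% of all genes were called higher. It lowered 2, the receptor antagonist Il1rn (-1.82 ± 0.64, adjusted p = 0.00950) and the IL-18 binding protein Il18bp (-0.74 ± 0.33, adjusted p = 0.0435), where 16.9% were called lower. Il1rn reached the filter's 0.566 CPM in both samples of each vehicle group but in no KO JSH-23 sample. Its counts were 19 and 13 in KO vehicle and 7 and 2 in KO JSH-23. In WT, JSH-23 raised Sigirr (0.92 ± 0.20, adjusted p = 1.01e-04) and lowered none, where 5.55% of all genes were called higher and 10.2% lower.

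Other ligands of the same families were read from a list of 25, of which 22 were in the tables and 12 were tested. Under vehicle none was called higher in KO and 2 were called lower, where 7.48% of all genes were called higher and 5.16% lower. These were the alarmin Il33 (-0.65 ± 0.085, adjusted p = 1.08e-09) and the TNF family member Tnfsf12 (-0.77 ± 0.11, adjusted p = 4.73e-09), with a median of 0.00. Il33 was at 458 and 456 counts in WT vehicle, 328 and 339 in KO vehicle, 449 and 402 in WT JSH-23 and 501 and 601 in KO JSH-23. In KO, JSH-23 raised it, opposite to Lif, by 0.70 ± 0.083 (adjusted p = 1.84e-11), while its value in WT was -0.12 ± 0.082 (adjusted p = 0.191), with an interaction of 0.82 ± 0.12 (adjusted p = 1.47e-08). Il34, the second ligand of the M-CSF receptor, had an interaction of 0.73 ± 0.086 (adjusted p = 5.36e-11), with a level in WT vehicle of 76.2 ± 4.7 TPM, above the 28.4 of Csf1. JSH-23 in KO lowered Flt3l, Tnfsf9 and Tnfsf10, where 9.10% of all genes were called higher and 16.9% lower. In WT it lowered Tnfsf10 and raised Cntf, where 5.55% of all genes were called higher and 10.2% lower. Cntf reached the filter's 0.566 CPM in no WT vehicle sample and Tnfsf10 in no WT JSH-23 sample, the groups in which they were low. Il3, Il27 and Tnfsf11 had no count in any sample.

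Regulators of cytokine mRNA decay were read from a list of 8, all tested. Of these, Zfp36 and Zfp36l1, which bind AU-rich elements of cytokine mRNAs, were called higher in KO vehicle and none was lower, where 7.48% of all genes were higher and 5.16% lower, and the median was 0.10. Zfp36 had 505 and 554 counts in WT vehicle, 946 and 1134 in KO vehicle, 480 and 441 in WT JSH-23 and 492 and 563 in KO JSH-23. KO vehicle stood alone, as it did for Lif and Csf3, higher than WT by 0.78 ± 0.065 on the log2 scale (adjusted p = 7.94e-17) and an interaction of -0.78 ± 0.10 (adjusted p = 1.03e-09). Zfp36l1 rose in KO by 0.76 ± 0.060 (adjusted p = 4.30e-18) and had an interaction of -0.94 ± 0.084 (adjusted p = 2.24e-15). Its log2 change under JSH-23 was -0.40 ± 0.056 in KO and 0.54 ± 0.063 in WT, both under 1.5-fold and not called. Zc3h12a, the NF-κB induced RNase that degrades Il6 mRNA, was not called between genotypes under vehicle (-0.08 ± 0.077, adjusted p = 0.405), fell under JSH-23, with a log2 change of -2.03 ± 0.098 in KO and -1.36 ± 0.092 in WT, and had an interaction of -0.67 ± 0.14 (adjusted p = 7.19e-05).

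Response genes of the JAK-STAT pathway were read from a list of 9, all tested, which holds Stat5a and Stat5b as well as Stat3. Of these 9, 1 was called in each direction between genotypes under vehicle, where 7.48% of all genes were called higher and 5.16% lower. Socs3, the STAT3-induced feedback inhibitor, was called higher in KO vehicle (0.63 ± 0.038, adjusted p = 9.16e-24) and Cish, a STAT5 target, lower (-0.62 ± 0.15, adjusted p = 4.81e-04), and the median was -0.04. Socs3 had 1414 and 1458 counts in WT vehicle, 2380 and 2707 in KO vehicle, 1941 and 1802 in WT JSH-23 and 2521 and 2838 in KO JSH-23. JSH-23 in KO changed it by 0.05 ± 0.034 (adjusted p = 0.161), where the change of Lif was -1.42. None of the 9 had a called interaction. In KO, JSH-23 raised Pim1 (0.82 ± 0.039) and lowered Socs1 (-0.73 ± 0.20), and in WT it raised Pim1 (0.62 ± 0.040) and Cish (0.66 ± 0.13). Of all genes, 9.10% were called higher and 16.9% lower under JSH-23 in KO, and 5.55% and 10.2% in WT.

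The genes whose levels over the 8 samples were most like those of the abundant cytokines were found by Pearson's r of log2 CPM, given as a description over samples that share groups and library scaling. For Lif they were Hk2, Vegfa and Map4k3, with r of 0.999, 0.999 and 0.997. For Csf1 they were Zmynd11 at 0.995, Zfp710 at 0.994 and Cebpa at 0.992. For Csf3, which was added after its values were seen because its mean of 4.35 CPM was under the limit of 5, they were Nptxr and Gen1, both at 0.997, and Slx4 at 0.993. With 8 samples in 4 groups, such values mainly rank genes by their 4 group levels.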

How the data were processed

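The authors sorted EpCAM+ CD45- cells, sequenced their RNA and deposited, per sample, raw read counts per gene and TPM. The paper's methods name TopHat2 with GRCm38/mm10 and strand-specific HTSeq-count, while the submitters' processing notes name HISAT2, HTSeq, DESeq2 and mm10, so the aligner is not settled here. The deposited TPM equalled count over gene length, scaled to 1000000 per sample. Groups and replicate numbers came from the sample labels. The 10 genes and the lists were chosen with earlier results of these data known.

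Counts were filtered with filterByExpr, scaled by TMM (0.949 to 1.03) and fitted with a quasi-likelihood model on all 8 samples in edgeR 4.0.16 (R 4.3.3), tested on simulated data. The p-values were two-sided and adjusted over 13921 genes by Benjamini-Hochberg, and a call needed a 1.5-fold change and an adjusted p under 0.05. The SE was taken from the F statistic, and the common biological coefficient of variation was 1.61%. Ratios of summed counts carry exact (Clopper-Pearson) 95% intervals from scipy 1.17.1, which cover counting error only. Alternatives used DESeq2 1.42.0, limma 3.58.1 on log2(TPM + 1) and log2(TPM + 0.1), other filters, scalings and spreads, and fits without each sample. Replicates differed by more than sampling noise, with chi-square over its degrees of freedom of 1.46 to 1.57. Named genes were all 10 cytokines, the list genes called between genotypes under vehicle or in the interaction, and for cytokines over 5 CPM the 3 genes most correlated. Others were named after their values were seen. Some markers are not reported here.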

Additional observations from a re-analysis of the deposited data

Results flagged for a closer look

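The effect of JSH-23 differed between KO and WT, by the test of the interaction, for 4 cytokines at an adjusted p under 0.05. That limit alone was met by 5346 of all 13921 genes tested, so meeting it was common. In the ligand and decay lists, 6 genes met it and also passed 1.5-fold. Of all genes, 3.30% did both in the higher direction and 5.76% in the lower. Other list genes passed the adjusted p under 1.5-fold, such as Il6st at -0.50 and Flt3l at -0.52, and among the cell type markers Krt8 (0.59), Cd68 (-0.69) and Col3a1 (-1.80) were called. Among the cytokines, the log2 effect in KO minus that in WT was -0.40 for Csf1, -1.25 for Csf3, -1.56 for Il18 and -0.66 for Lif, and that of Csf1 was under 1.5-fold. Among the other ligands it was -1.71 for Cntf, 0.82 for Il33 and 0.73 for Il34. Among the mRNA decay regulators it was -0.67 for Zc3h12a, -0.78 for Zfp36 and -0.94 for Zfp36l1. Cntf rests on 5 to 23 counts per library and reached the filter's CPM in no WT vehicle sample.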

How the results depend on the processing

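With 2 samples a group and a very small spread between them, calls near 1.5-fold and genes with fewer than 20 counts are the least certain. Requiring 10 counts in every sample tested 4 cytokines, and gave 2 calls in place of 4 for KO against WT under vehicle, 4 in place of 7 for JSH-23 in KO, and 3 in place of 5 for KO with JSH-23 against WT vehicle, because fewer genes were tested. A test against a 1.5-fold change left 1 of 3 calls for KO against WT under JSH-23 and 0 of 3 for the interaction. A biological coefficient of variation of 0.2 left 2 of 4 for JSH-23 in WT, 1 of 3 for KO against WT under JSH-23 and 0 of 3 for the interaction. By the interaction 3 genes were called at an unadjusted p under 0.05 with a 1.5-fold change, and DESeq2 called 2. Fits without 1 sample gave 3 to 6 calls for KO with JSH-23 against WT vehicle and 1 to 4 for the interaction. The lowest values came without KO JSH-23 replicate 2 and without WT JSH-23 replicate 2.

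Of the cytokines' log2 fold changes under alternatives that kept all samples, 483 kept direction and call, 26 lost the call, 8 gained one and 4 reversed. Lif in KO against WT under JSH-23 turned to -0.023 on log2(TPM + 1) and -0.025 on log2(TPM + 0.1). The interaction of Il1b turned to 0.65 and 0.039 on these scales. Neither value was called, and the cause was not tested. Without 1 sample, the uncalled value of Il1a ranged from -0.11 to 0.30 in KO against WT under vehicle and from -2.29 to 0.063 under JSH-23, and that of Tnf from -4.48 to 0.30 under JSH-23. Without scaling beyond the library size the median of all genes moved from -0.02 to -0.13 for JSH-23 in KO and from 0.00 to -0.11 for the interaction, and log2(TPM + 1) moved them to -0.20 and -0.17. A fit on the groups compared alone gives no interaction.

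A pairing of the samples by replicate number was not seen, with a correlation of replicate differences between groups of -0.0104 to 0.0225. A correlation near 0 cannot exclude a pairing. With the replicate block the numbers of called cytokines were 4, 7, 4, 3, 5 and 3, as without it.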
